A study of Mus musculus with 6 samples.

Results

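The amino acid stress response through Atf4 was described in mouse mammary tumours from 10 genes, which were Atf4, Asns, Chac1, Sesn2, Ddit3, Trib3, Psat1, Phgdh, Slc7a5 and Slc3a2. The genes were chosen by symbol, as a known set of Atf4 targets and partners, with the values of these tumours already known. All 10 were found among the 23381 genes of the deposited table. To raise the tumours, 500000 cells of 4T1, a line from a mammary carcinoma of the Balb/c strain, were put into an inguinal fat pad of the mammary gland in mice of that strain. Once tumours had formed, one group of mice received Vismodegib, a small molecule that binds Smoothened and thereby blocks Hedgehog signalling, at 2 mg per mouse 3 times a week for 3 weeks. The other group received DMSO, the vehicle. All mice were given as 10 weeks old, all tumours came from the same cell line, and each group had 3 libraries of whole tumour RNA. Whether each library came from its own animal is not stated, so that the spread is between these libraries.

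Cells that run short of an amino acid, or that accumulate unfolded proteins in the endoplasmic reticulum, phosphorylate the translation factor eIF2. Most translation then slows, while the Atf4 mRNA is translated more, so that the Atf4 protein is set largely by translation and its RNA level is only a partial readout. Atf4 binds DNA as a dimer with C/EBP proteins at C/EBP-ATF composite elements and raises the RNA of enzymes that make amino acids, of transporters that import them, of aminoacyl tRNA synthetases and of regulators that end the response or lead to cell death. Solid tumours, whose blood supply is uneven, are known to use this response where nutrients are scarce.

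A core of the composite element was found in the promoter windows of 3 of the 10 genes. Windows from 250 bases before to 50 bases after each RefSeq gene start (build GRCm38.p6, the same assembly as mm10) were found for 9 of the 10 genes, all but Slc7a5, and were searched on both strands for TGATGNAA, a core of the element, which reads TTNCATCA on the other strand. It was present in the windows of Asns, Chac1 and Trib3, against 4.51% of 27025 genes and 3.97% of 32851 windows in all. The 3 windows are shown 5′ to 3′ in the direction of transcription, with the match in capitals. They are shown because the RNA of genes with these letters differed in both directions. Asns and Chac1 had the lowest log2 differences between Vismodegib and DMSO of the 10 genes, while Trib3 was the one gene with a difference above 0. Genes whose windows lacked the letters ran from -0.86 in Psat1 and -0.83 in Sesn2 to -0.13 in Slc3a2. Whether the letters bear on the differences was not tested.
Asns (chr6:7693160-7693459, minus strand): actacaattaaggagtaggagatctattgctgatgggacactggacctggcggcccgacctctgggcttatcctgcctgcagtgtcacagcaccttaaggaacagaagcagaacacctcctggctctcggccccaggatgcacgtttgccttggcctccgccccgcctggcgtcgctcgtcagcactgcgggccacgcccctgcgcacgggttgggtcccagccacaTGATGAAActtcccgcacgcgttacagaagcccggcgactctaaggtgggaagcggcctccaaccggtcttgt
Chac1 (chr2:119350992-119351291, plus strand): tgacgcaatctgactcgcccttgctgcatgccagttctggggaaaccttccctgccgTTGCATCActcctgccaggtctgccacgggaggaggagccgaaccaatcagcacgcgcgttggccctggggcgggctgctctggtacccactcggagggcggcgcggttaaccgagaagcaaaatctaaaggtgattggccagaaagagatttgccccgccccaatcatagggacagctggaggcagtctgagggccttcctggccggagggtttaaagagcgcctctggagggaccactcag
Trib3 (chr2:152344011-152344310, minus strand): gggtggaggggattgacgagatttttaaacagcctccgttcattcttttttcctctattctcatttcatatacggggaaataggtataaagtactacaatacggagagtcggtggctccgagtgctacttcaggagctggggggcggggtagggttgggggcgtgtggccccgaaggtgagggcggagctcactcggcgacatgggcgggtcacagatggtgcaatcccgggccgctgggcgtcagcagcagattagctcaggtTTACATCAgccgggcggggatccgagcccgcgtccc
The match began 23 bases before the start in Asns and 193 bases before it in Chac1, and at base 15 after the start in Trib3. A match describes the letters only and does not show that Atf4 bound there. The windows of Atf4, Sesn2, Ddit3, Psat1, Phgdh and Slc3a2 did not hold these letters. Those of Psat1 (chr19:15924573-15924872 and chr19:15925010-15925309) and Slc3a2 (chr19:8713848-8714147) lay inside the genes as placed below. The outermost starts of these genes as placed below were therefore not searched.

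The unit of the table, RPKM, divides the reads of a gene by its length and by the reads of its library, so that levels can be compared between genes. The steps between low values corresponded to 34800000 to 58000000 reads per library. The libraries listed 4052 to 5313 genes at 0, and none of 10 housekeeping genes was among them. The summed RPKM of all genes was lowest in DMSO replicate 1, at 324967, and highest in DMSO replicate 2, at 432898. All 7 markers of tumour epithelium were detected in every library, with a summed level of 2479 to 2595 RPKM in Vismodegib tumours and 1593 to 2751 RPKM in DMSO tumours. In whole tumours, fewer cells of a type and less RNA per cell cannot be told apart. Across the table, limma called 0 of 11818 genes past an adjusted p of 0.05, which is 0% of the genes tested, and 266 genes past an unadjusted p of 0.05, which is 2.25%. Of these 266, 229 were higher in Vismodegib (1.94% of the genes tested) and 37 were lower (0.313%).

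Atf4, the transcription factor at the centre of the response (ENSMUSG00000042406.8, chromosome 15, 80255184 to 80257541, plus strand), was abundant in every tumour. The level was 61.1, 56.7 and 36.0 RPKM in Vismodegib replicates 1 to 3, against 51.5, 92.2 and 73.6 RPKM in DMSO replicates 1, 2 and 3. All 3 Vismodegib libraries lay below DMSO replicates 2 and 3, and DMSO replicate 1 fell among them. The group means were 51.3 ± 13.4 RPKM in Vismodegib and 72.4 ± 20.4 RPKM in DMSO (mean ± SD, n = 3 libraries each, as for all means below). The difference, Vismodegib minus DMSO of log2(RPKM + 0.5), was -0.49. For this and the other 9 genes the difference is a description. The fit of the whole table included them, but no test is read for them because they were chosen with this contrast known.

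Ddit3 encodes Chop, the C/EBP-related factor that Atf4 induces and that drives cell death under lasting stress (ENSMUSG00000025408.15, chromosome 10, 127290774 to 127296288, plus strand). Its RNA was at 15.5, 19.6 and 10.0 RPKM in Vismodegib replicates 1 to 3, against 8.59, 31.4 and 21.4 RPKM in DMSO replicates 1 to 3. The lowest and the highest library were both DMSO, and the 3 Vismodegib libraries lay between them, with a log2 difference of -0.30. In the annotation, exons of Mars1 and Gm4189 on the other strand overlap those of Ddit3 by up to 68 and 13 bases, and a second record of the same name (ENSMUSG00000116429.1) lies within the gene, while the deposited table has 1 Ddit3 entry. As the use of strand is not given in the sources used here, reads in the overlap cannot be assigned.

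Trib3 encodes a pseudokinase that Atf4 and Chop induce and that in turn restrains them (ENSMUSG00000032715.9, chromosome 2, 152337422 to 152344032, minus strand). It was at 14.0, 14.9 and 16.8 RPKM in Vismodegib replicates 1 to 3, against 13.7, 13.6 and 10.5 RPKM in DMSO replicates 1 to 3. Of the 10 genes, it was the only one whose groups did not overlap, with all 3 Vismodegib libraries higher, as in 4.29% of the genes tested. The opposite order, all 3 Vismodegib libraries lower, held for 0 of the 10 genes and 0.745% of the genes tested, so that 1 of the 10 genes and 5.03% of the genes tested did not overlap in either direction. The gap between the groups was narrow, with 14.0 RPKM in the lowest Vismodegib library against 13.7 RPKM in the highest DMSO library. The log2 difference was 0.27, and the level varied 1.60-fold between the lowest and the highest library, the least of the 10 genes.

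**Figure D1:**
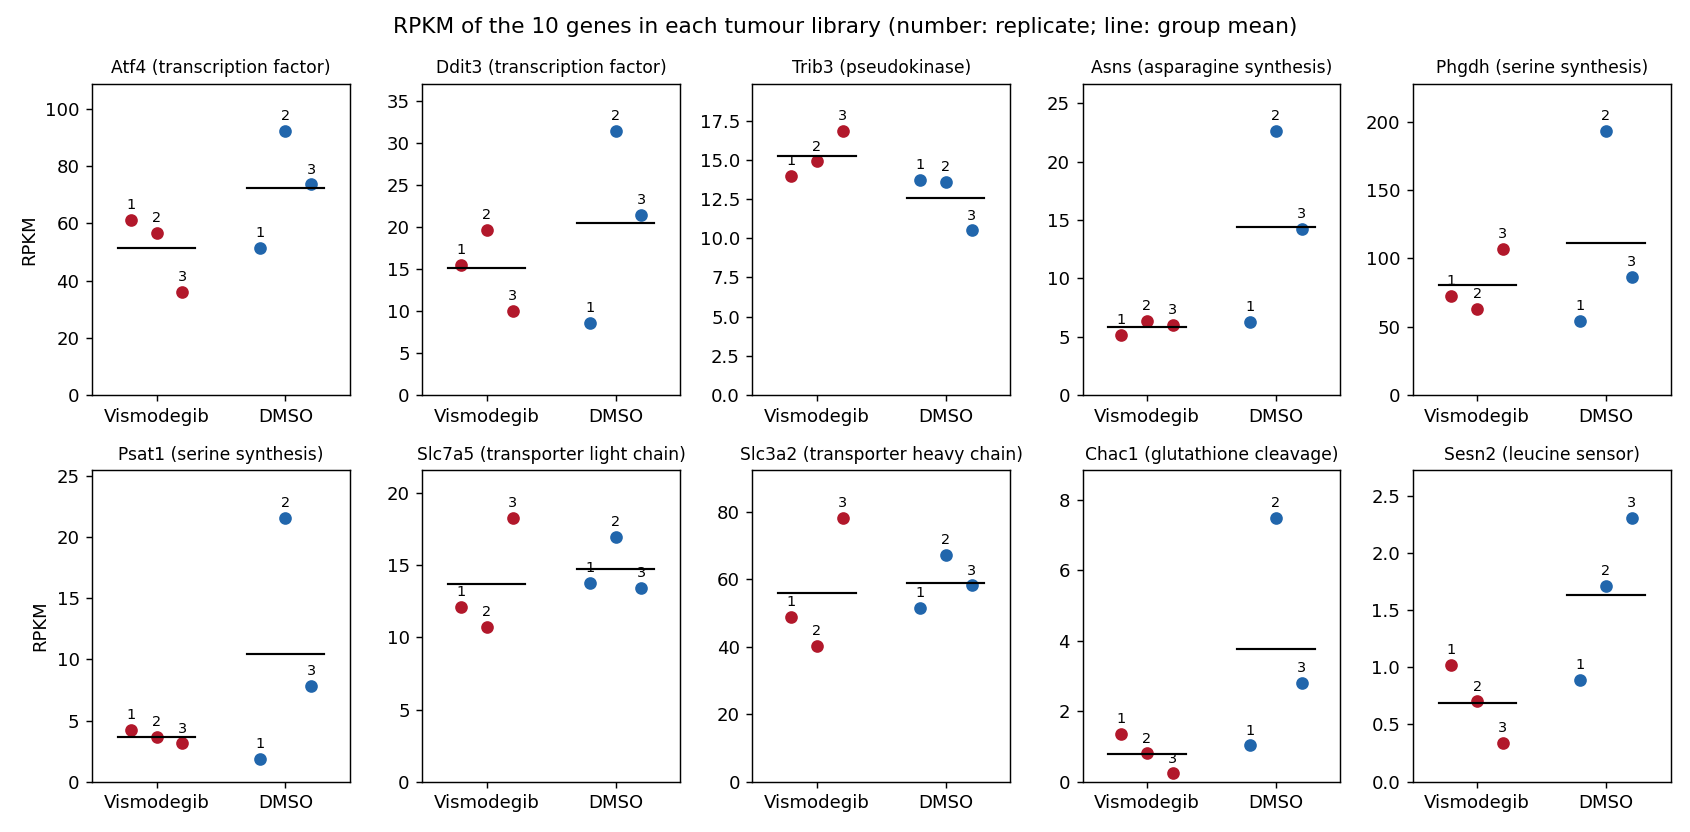
RPKM on the vertical axis for each of the 10 genes, with the 3 Vismodegib libraries (red) left of the 3 DMSO libraries (blue), numbered by replicate, and a line at each group mean. DMSO replicate 2 was the highest library for Atf4, Ddit3, Asns, Phgdh, Psat1 and Chac1, and Vismodegib replicate 3 for Trib3, Slc7a5 and Slc3a2.

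Asns, asparagine synthetase, is the standard reporter of amino acid shortage (ENSMUSG00000029752.12, chromosome 6, 7675169 to 7693254, minus strand). The Vismodegib libraries were close to each other at 5.14, 6.34 and 5.98 RPKM, against 6.27, 22.6 and 14.2 RPKM in DMSO replicates 1, 2 and 3. DMSO replicate 1 fell within the range of the Vismodegib libraries, and the other DMSO libraries were above all of them. The means were 5.82 ± 0.617 RPKM in Vismodegib and 14.4 ± 8.18 RPKM in DMSO, with a log2 difference of -1.07.

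Phgdh and Psat1 catalyse consecutive steps in the synthesis of serine from a glycolytic intermediate. The RNA of Psat1 (ENSMUSG00000024640.9, chromosome 19, 15904678 to 15947337, minus strand) reached 4.24, 3.69 and 3.13 RPKM in Vismodegib replicates 1 to 3, against 1.85, 21.6 and 7.82 RPKM in DMSO replicates 1 to 3. The DMSO libraries spanned an 11.7-fold range that held all 3 Vismodegib libraries, and the log2 difference was -0.86. Phgdh, the entry enzyme of the pathway (ENSMUSG00000053398.11, chromosome 3, 98313170 to 98339990, minus strand), had the highest mean of the 10 genes. It was at 72.6, 62.7 and 107 RPKM in Vismodegib replicates 1 to 3, against 54.2, 193 and 86.2 RPKM in DMSO replicates 1 to 3. Here too the DMSO libraries enclosed the Vismodegib libraries, with a log2 difference of -0.30. The ratio of Phgdh to Psat1 was not constant, at 17.1, 17.0 and 34.3 in Vismodegib replicates 1 to 3 and 29.4, 8.95 and 11.0 in DMSO replicates 1 to 3. Both enzymes were at their highest in DMSO replicate 2, where this ratio was at its lowest.

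The Phgdh values are uncertain because processed pseudogenes resemble it. The table listed 7 genes whose annotated transcript matched the longest Phgdh transcript at 95.3% to 98.7% identity over 754 to 1608 bases. Their summed values were 6.21, 5.84 and 6.54 RPKM in Vismodegib replicates 1 to 3, against 4.00, 21.1 and 5.83 RPKM in DMSO replicates 1 to 3. They made up 5.76% to 9.85% of the sum of Phgdh and its copies, and DMSO replicate 2 was highest for their sum as for Phgdh. Whether these were reads of Phgdh was not tested.

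Slc7a5 (Lat1) and Slc3a2 (the 4F2 heavy chain) are the light and heavy chain of the transporter that exchanges glutamine for leucine and other large neutral amino acids, and the heavy chain also serves other light chains. Slc7a5 (ENSMUSG00000040010.10, chromosome 8, 121881150 to 121907694, minus strand) gave 12.1, 10.7 and 18.3 RPKM in Vismodegib replicates 1 to 3, against 13.8, 17.0 and 13.4 RPKM in DMSO replicates 1 to 3. Slc3a2 (ENSMUSG00000010095.13, chromosome 19, 8706882 to 8723369, minus strand) gave 49.0, 40.4 and 78.2 RPKM in Vismodegib replicates 1 to 3, against 51.6, 67.2 and 58.2 RPKM in DMSO replicates 1 to 3. In both chains the Vismodegib libraries held the lowest and the highest value and enclosed the DMSO libraries, and the log2 differences were -0.13 and -0.13. The level of Slc3a2 over that of Slc7a5 stayed between 3.75 and 4.34 in all 6 libraries. Their standardised profiles were the closest of all pairs of the 10 genes, with a root mean square distance of 0.217 over the 6 libraries.

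Chac1 and Sesn2 had the lowest mean levels of the 10 genes. Chac1, which cleaves glutathione and is induced by Atf4 and Chop (ENSMUSG00000027313.3, chromosome 2, 119351229 to 119354381, plus strand), varied most, with a 32.3-fold range. It was at 1.36, 0.801 and 0.232 RPKM in Vismodegib replicates 1 to 3, against 1.03, 7.49 and 2.81 RPKM in DMSO replicates 1 to 3. With the recovered totals these values correspond to 93, 56 and 22 reads in Vismodegib and 63, 427 and 186 reads in DMSO, so that counting error is small beside the spread. DMSO replicate 1 lay between Vismodegib replicates 1 and 2, and the log2 difference was -1.50, the largest in size of the 10 genes.

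Sesn2 encodes a leucine sensor that restrains the growth kinase complex mTORC1 when leucine is short (ENSMUSG00000028893.8, chromosome 4, 132492032 to 132510501, minus strand). Its mean was the lowest of the 10 genes, with 1.02, 0.700 and 0.337 RPKM in Vismodegib replicates 1 to 3, against 0.891, 1.71 and 2.30 RPKM in DMSO replicates 1 to 3, or 68 to 148 reads in Vismodegib and 116 to 324 reads in DMSO. Only DMSO replicate 1 fell within the range of the Vismodegib libraries. The means were 0.687 ± 0.343 RPKM in Vismodegib and 1.64 ± 0.710 RPKM in DMSO, with a log2 difference of -0.83.

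Over the 10 genes, 9 had a difference below 0, as did 41.6% of all genes tested. The median difference was -0.40, beside 0.05 over all genes tested. All 10 passed the filter of a mean of 0.5 RPKM, and 0 of the 10 were among the genes past the adjusted threshold, which were 0% of the table. With library weights estimated by limma, 420 genes (3.55% of the genes tested) were past that threshold, 114 of them (0.965%) lower in Vismodegib, and Asns, Chac1 and Sesn2 were among the 114. DMSO replicate 3 then had a weight of 7.28 and DMSO replicates 1 and 2 had 0.319 and 0.316. Nothing is read from the weighted calls of these genes, because their values were known when the genes were chosen. Single libraries moved these differences. Without DMSO replicate 2 the median difference was -0.06, that of Psat1 was -0.09, and those of Ddit3 and Phgdh turned to 0.09 and 0.20. Asns, Chac1, Sesn2 and Atf4 kept differences of -0.67, -0.89, -0.78 and -0.30 without it. Without DMSO replicate 1 the median was -0.77, and Chac1, Psat1 and Asns were at -2.09, -1.70 and -1.55. Slc7a5 and Slc3a2 turned to 0.02 and 0.08 without Vismodegib replicate 2. Without Vismodegib replicate 3, Atf4 and Ddit3 were nearer 0, at -0.26 and -0.04, while Phgdh, Slc7a5 and Slc3a2 were at -0.52, -0.35 and -0.40.

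**Figure D2:**
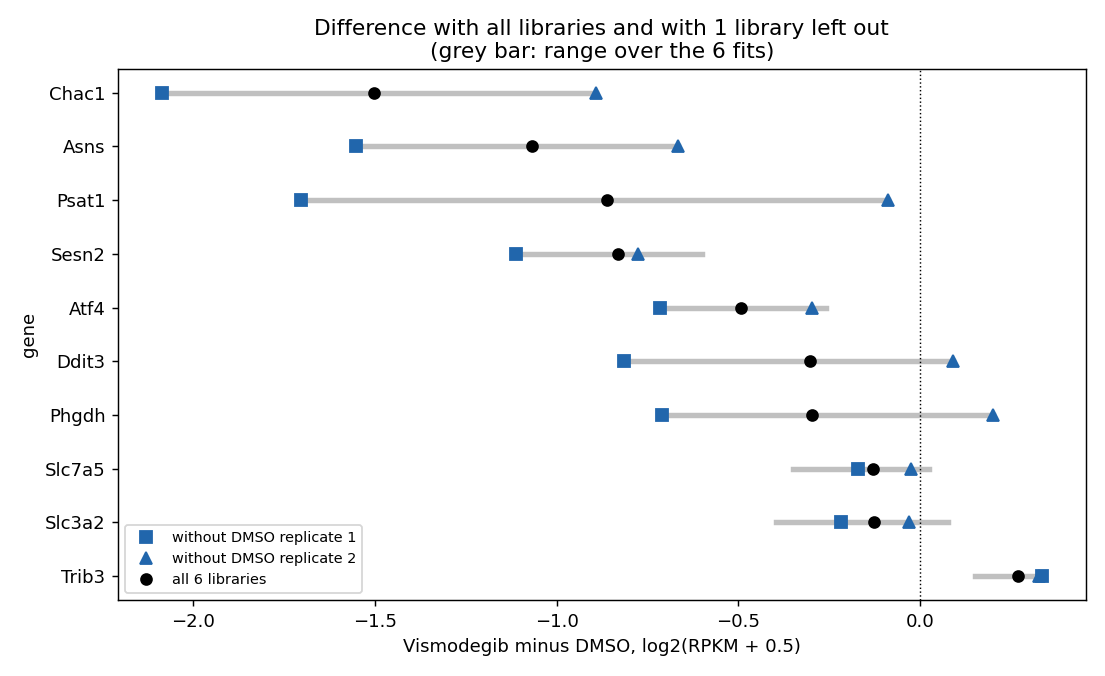
Difference between Vismodegib and DMSO on the log2(RPKM + 0.5) scale for each gene, with all 6 libraries (black), without DMSO replicate 1 (squares) and without DMSO replicate 2 (triangles), and the range over the 6 fits that leave out 1 library (grey). Chac1, Asns, Psat1, Sesn2 and Atf4 were below 0 in every such fit, and Trib3 was above 0.

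The 10 genes did not vary as a single block. In Atf4, Asns, Chac1, Sesn2, Ddit3 and Psat1, all 3 Vismodegib libraries lay below DMSO replicates 2 and 3, a pattern that 14.7% of the genes tested showed. Phgdh, Slc7a5, Slc3a2 and Trib3 did not show it, and these 4 were instead at their highest among the treated tumours in Vismodegib replicate 3, as were 24.7% of the genes tested. In contrast, Vismodegib replicate 3 was the lowest treated tumour for Atf4, Chac1, Sesn2, Ddit3 and Psat1, as it was for 54.9% of the genes tested. Atf4 at 36.0 RPKM and Slc3a2 at 78.2 RPKM were therefore measured in the same library. DMSO replicate 2 was the highest of all 6 libraries for 6 of the 10 genes, beside 29.8% of the genes tested, and DMSO replicate 1 the lowest DMSO library for 8 of the 10, beside 49.9%. The variation within groups differed as much between the genes. The pooled standard deviation on the log2 scale was 1.16 for Psat1 and 0.972 for Chac1, at percentiles 97.8 and 96.0 of the genes tested, against 0.175 for Trib3 at percentile 7.82. The median over all genes tested was 0.367. For 8 of the 10 genes the DMSO libraries varied more than the Vismodegib libraries, as they did for 64.8% of the genes tested.

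**Figure D3:**
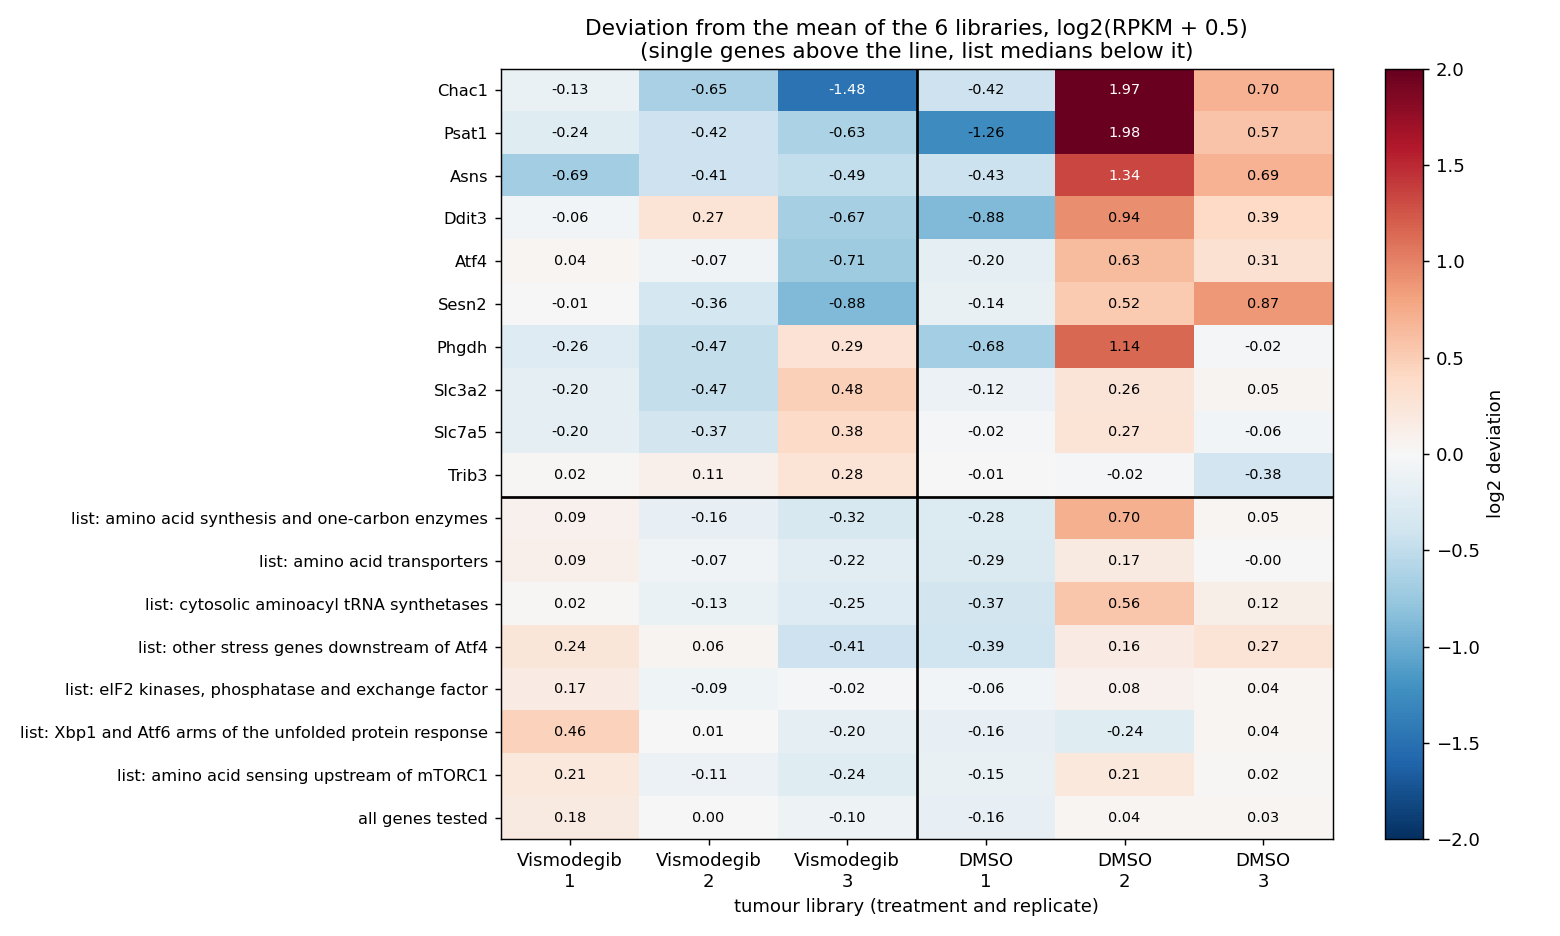
Deviation of each library (columns, Vismodegib left of DMSO) from the mean of the 6 libraries on the log2(RPKM + 0.5) scale, for the 10 genes above the line and as medians of related gene lists and of all genes tested below it. Red is above and blue below the mean. DMSO replicate 2 stood at 1.97 for Chac1 and 1.98 for Psat1, while Trib3 stayed between -0.38 and 0.28.

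Markers of cells and states varied between the same libraries, which also differed across the whole table. The median log2 deviation of all genes tested was 0.18, 0.003 and -0.10 in Vismodegib replicates 1 to 3. In DMSO replicates 1 to 3 it was -0.16, 0.04 and 0.03. The summed level of 7 genes of dividing cells was 95.4 to 120 RPKM in Vismodegib and 76.4, 179 and 128 RPKM in DMSO replicates 1, 2 and 3, so that DMSO replicate 2 was highest and DMSO replicate 1 lowest, as for Ddit3, Psat1 and Phgdh. The epithelial sum was lowest in DMSO replicate 1. The sum of 9 hypoxia genes was 257, 247 and 126 RPKM in Vismodegib replicates 1 to 3, against 120, 213 and 352 RPKM in DMSO replicates 1 to 3, with Vismodegib replicate 3 and DMSO replicate 1 lowest. In the same libraries the sum of 8 macrophage markers was highest, at 2708 RPKM in Vismodegib replicate 3 and 2130 RPKM in DMSO replicate 1, beside 793 to 1627 RPKM in the other libraries. Of the tested markers, 5 of 7 epithelial, 1 of 7 dividing cell, 5 of 9 hypoxia and 2 of 7 macrophage genes had a difference above 0. Over all genes tested the share above 0 was 58.4%. Neutrophil markers had a difference above 0 in 0 of 5, and their sum was 101, 106 and 15.6 RPKM in Vismodegib replicates 1 to 3, against 22.6, 80.7 and 212 RPKM in DMSO replicates 1 to 3. Vismodegib replicate 3 and DMSO replicate 1 were again lowest, and Mmp8 was listed at 0 in at least 1 library. Lymphocyte markers were above 0 in 2 of 5 for T and NK cells, with sums of 17.8 to 25.0 RPKM in Vismodegib and 21.6 to 28.5 RPKM in DMSO. For B and plasma cells it was 1 of 4, with sums of 3.90 to 61.9 RPKM in Vismodegib and 0.743 to 67.0 RPKM in DMSO, and Ms4a1 was listed at 0 in at least 1 library. Tested markers of fibroblasts, endothelium, adipocytes and skeletal muscle were all above 0, with 7 of 7, 3 of 3, 4 of 4 and 6 of 6. The endothelial sum was 15.4 to 32.7 RPKM in Vismodegib and 11.7 to 26.7 RPKM in DMSO. Summed levels of fibroblast markers were 74.8 to 183 RPKM in Vismodegib and 61.9 to 77.0 RPKM in DMSO, those of adipocyte markers 8.26 to 29.8 RPKM in Vismodegib and 4.74 to 15.0 RPKM in DMSO, and those of muscle markers 77.9 to 167 RPKM in Vismodegib and 8.40 to 168 RPKM in DMSO. Adipoq and Lep were listed at 0 in at least 1 library, as was the muscle gene Pvalb. The part of these cells and states in the values of the 10 genes was not tested.

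Genes outside the 10 were ranked by how close their standardised profile over the 6 libraries lay to the mean profile of the 10 genes. Among the 5219 genes that averaged 5 RPKM or more, the closest were Rcan1, Atp5d, Supt6, Grk6 and Incenp, at root mean square distances of 0.074 to 0.143. Rcan1, a regulator of the phosphatase calcineurin, was at 5.36, 4.76 and 5.98 RPKM in Vismodegib replicates 1 to 3, against 4.26, 22.4 and 8.41 RPKM in DMSO replicates 1 to 3. Incenp, a subunit of the chromosomal passenger complex of mitosis, was at 5.88 to 6.39 RPKM in Vismodegib, against 4.79, 15.5 and 9.74 RPKM in DMSO replicates 1 to 3. Standardised profiles leave out the size of a change. Supt6 ran only from 7.99 RPKM in Vismodegib replicate 2 to 9.96 RPKM in DMSO replicate 2, and Atp5d from 239 to 345 RPKM in the same libraries. The mean profile also combined unlike genes, which lay at 0.275 (Psat1) to 1.56 (Trib3) from the mean profile of the rest of the 10. With 6 libraries and this many genes, close profiles are to be found in number, and the ranking is a description.

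Related genes were read from lists of the same pathway, as counts of the whole-table fit, and 0 members of any list passed at an adjusted p or an unadjusted p under 0.05. Among 9 tested enzymes of amino acid and folate metabolism, 7 had differences below 0, beside 41.6% of all genes tested. The median of the 9 was -0.30 and turned to 0.06 without DMSO replicate 2. Mthfd2, the mitochondrial folate enzyme, was at 5.61, 4.96 and 3.42 RPKM in Vismodegib replicates 1 to 3, against 3.59, 12.5 and 11.5 RPKM in DMSO replicates 1 to 3, and its log2 difference of -0.76 had a 95% interval of -1.78 to 0.26. As in Asns, DMSO replicate 1 stood with the Vismodegib tumours and apart from the other DMSO tumours. Shmt2, which turns serine into glycine in mitochondria, had a difference of -0.47, and Gpt2, a mitochondrial alanine transaminase, of -0.34. Cth, which makes cysteine from cystathionine, was at 3.38, 2.47 and 3.05 RPKM in Vismodegib against 4.44, 1.28 and 1.04 RPKM in DMSO, with a difference of 0.54. Of the 9 enzymes, 7 were highest in DMSO replicate 2, beside 29.8% of all genes tested. Aldh1l2, Bcat1 and Cbs were too low to be tested.

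The 20 cytosolic aminoacyl tRNA synthetases, which charge tRNAs with amino acids and of which many are Atf4 targets, mostly had the same highest library. DMSO replicate 2 was highest for 16 of the 20 and DMSO replicate 1 lowest for 14, beside 29.8% and 31.5% of all genes tested. Of the 20, 16 had differences below 0, beside 41.6% of all genes tested. The median of the 20 was -0.16 and turned to 0.08 without DMSO replicate 2. Alanyl tRNA synthetase, Aars, was at 5.89, 5.76 and 4.32 RPKM in Vismodegib replicates 1 to 3, against 3.66, 17.8 and 8.31 RPKM in DMSO replicates 1 to 3. Its difference was -0.60 with a 95% interval from -1.70 to 0.50, and those of Cars and Sars were -0.52 and -0.28. The aspartyl enzyme, Dars, ran the other way, at 10.4, 8.93 and 5.46 RPKM in Vismodegib against 6.97, 3.93 and 6.33 RPKM in DMSO, with its lowest value in DMSO replicate 2. The core of the composite element was found in the promoter windows of Aars, Gars, Iars, Tars and Yars, which were 5 of the 13 synthetases with a window, beside 4.51% of all genes with a window. The letters were also in 5 of 17 windows of the other stress genes, 3 of 10 of the enzymes, 2 of 7 of the transporters, 1 of 13 of the eIF2 list and 1 of 17 of the Xbp1 and Atf6 arms, and in 0 of 19 of the mTORC1 list. These matches are descriptions and were not tested.

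Among 7 tested transporters of amino acids, 6 had differences below 0, beside 41.6% of all genes tested. The median of the 7 was -0.12, and it was -0.34 without DMSO replicate 1 and -0.00051 without DMSO replicate 2. Slc1a4 and Slc1a5, exchangers of neutral amino acids, had differences of -0.34 and -0.28, and both were highest in DMSO replicate 2. Slc7a1, which imports arginine and lysine, had a difference of -0.18. For Slc38a2, a sodium-coupled importer of neutral amino acids that is also induced by shortage, the difference was 0.19. The 4 intervals all included 0. Slc7a3, Slc6a9 and Slc43a1 were too low to be tested.

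Other stress genes downstream of Atf4 were less uniform. Of 16 tested genes, 11 had differences below 0 and 5 above, beside 41.6% and 58.4% of all genes tested. The median was -0.14. Without Vismodegib replicate 3 this median turned to 0.05 and without DMSO replicate 3 to 0.01, and without DMSO replicate 1 it was -0.50. Atf5, a related transcription factor, was at 24.2, 15.9 and 8.23 RPKM in Vismodegib replicates 1 to 3, against 17.2, 39.1 and 19.0 RPKM in DMSO replicates 1 to 3, with a difference of -0.65. The difference of Ppp1r15a (Gadd34), which directs the phosphatase that restores eIF2, was -0.38. On the other side, Sesn3, a sestrin also under FoxO control, had a difference of 0.67 with a 95% interval from -0.10 to 1.45, where Sesn2 had -0.83. Fgf21, a secreted stress hormone, had a difference of 0.49. Gdf15 and Vldlr were too low to be tested.

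The machinery that senses and ends the stress gave a median near 0. Among 16 genes of the eIF2 kinases, phosphatase and exchange factor, 7 were above 0 and 9 below, beside 58.4% and 41.6% of genes tested. The median of this list was -0.01, and it was 0.11 without Vismodegib replicate 2. Eif2ak4 (Gcn2), the kinase that senses uncharged tRNA, was at 1.04, 0.728 and 0.772 RPKM in Vismodegib against 0.773, 0.839 and 0.842 RPKM in DMSO; it was named here after its values were seen, for its role. Eif2ak3 (Perk), the kinase of the endoplasmic reticulum, had a difference of 0.22 and Eif2ak2 (Pkr), which senses double-stranded RNA, of -0.33. Eif2s3x, a subunit of eIF2, had 0.65 and Ppp1cb, a catalytic subunit of protein phosphatase, 0.42. Of 17 tested genes of amino acid sensing upstream of mTORC1, 6 were above 0 and 11 below, with a median of -0.03. Castor1, the arginine sensor, and Sesn1 had differences of 0.43 and 0.35, and Mtor and Rragc of -0.27 and -0.26.

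The Xbp1 and Atf6 arms of the unfolded protein response had a median above 0. These arms raise chaperones and folding enzymes of the endoplasmic reticulum and answer to unfolded proteins, whereas the Atf4 arm also answers to amino acid shortage. Of 20 genes, 16 had differences above 0, as did 58.4% of all genes tested, with a median of 0.19 that was 0.05 without Vismodegib replicate 1. Dnajb9, a co-chaperone and target of Xbp1, was at 14.3, 11.4 and 4.57 RPKM in Vismodegib replicates 1 to 3, against 7.60, 3.37 and 8.52 RPKM in DMSO replicates 1 to 3. Its difference was 0.55 with a 95% interval from -0.51 to 1.62, and those of Dnajc3, Pdia6 and Pdia4 were 0.40, 0.36 and 0.31. DMSO replicate 2, where 6 of the 10 genes were highest, was the lowest library for 8 of these 20 genes and the highest for 4, beside 23.7% and 29.8% of all genes tested. Vismodegib replicate 1 was the highest for 13, beside 26.9% of all genes tested. Whether the difference between the list and the 10 genes is larger than the spread between libraries was not tested.

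**Figure D4:**
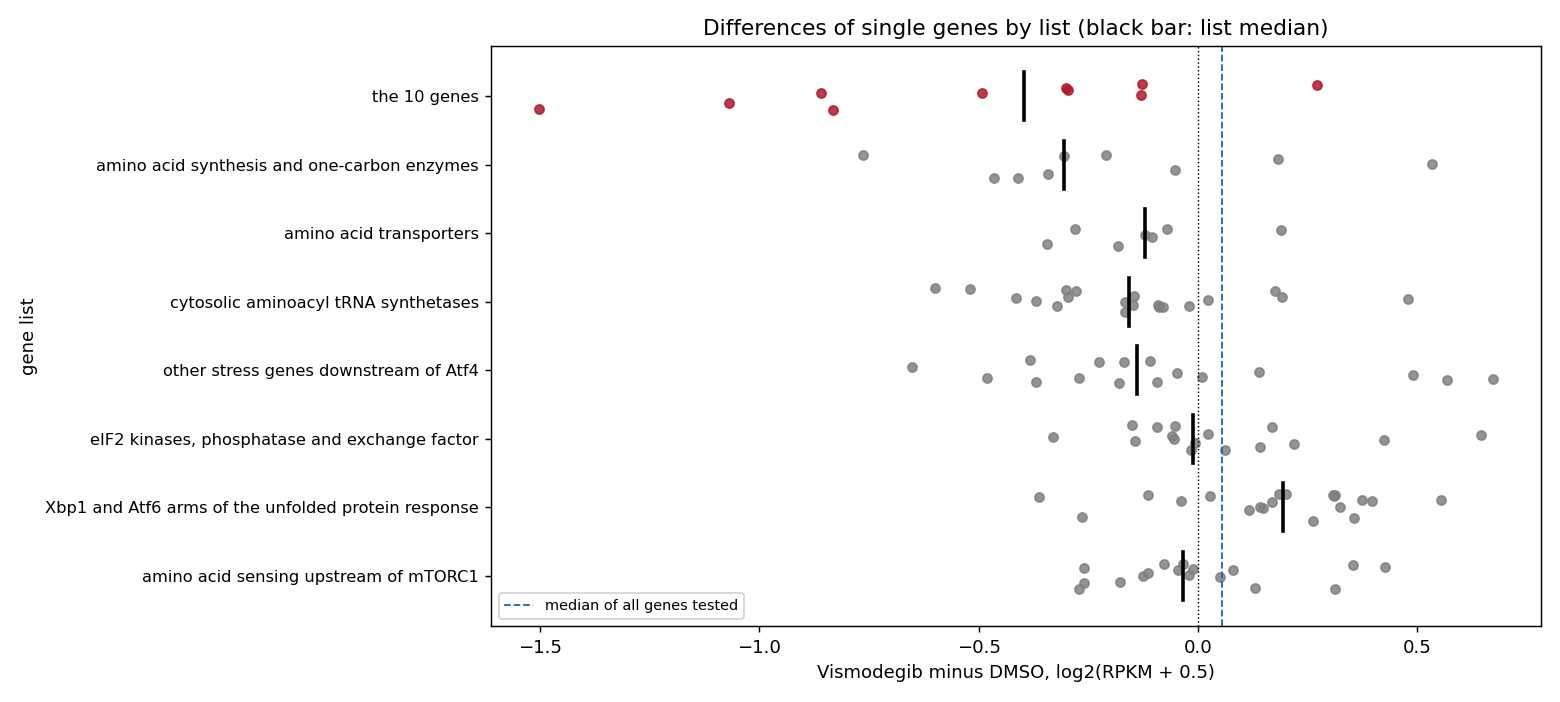
Difference between Vismodegib and DMSO on the log2(RPKM + 0.5) scale for each of the 10 genes (red) and for each tested gene of 7 related lists (grey), with list medians as black bars and the median of all genes tested as a dashed line. The medians ran from -0.40 for the 10 genes to 0.19 for the Xbp1 and Atf6 arms, and the genes of every list fell on both sides of 0.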

How the data were processed

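RNA of 3 Vismodegib and 3 DMSO tumours, grouped by their titles, had been read as pairs of 150 bases. The authors deposited RPKM values for 23381 genes. The submitters' processing notes name Partek, STAR and HISAT2, SAMtools, cutadapt, bcl2fastq 2.17 and the build mm10. Which tool did what, the annotation and the counting were not given in the sources used here. RPKM divides by the library total, so that each value also depends on the other genes.

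Read totals were taken from the most common step of low values in 6992 genes with 1 transcript in GENCODE M21; 84.3% to 85.7% of values up to 20 reads were then whole within 0.02 reads. A total too high by a whole-number factor would not be detected. Reads for Chac1 and Sesn2 cover counting error only.

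The 11818 genes that averaged 0.5 RPKM or more were fitted in limma 3.58.1 (R 4.3.3) as log2(RPKM + 0.5) (eBayes with a trend, group as the only term, two-sided, Benjamini-Hochberg adjustment over all genes tested). This scale understates the change of low genes. The steps were tested on simulated data with a smaller spread between libraries than most genes have here. That test covers the working of the steps and not their power in these data. The 10 genes and all lists were chosen with earlier results of these data known. Of 212 list entries all were matched, 19 through another symbol. Named were the 10 genes, up to 4 genes with the smallest unadjusted p per pathway list, and the 5 closest profiles; Eif2ak4 and genes named for their promoter or for low values were added. Near-identical transcripts were sought with BLAST+ 2.17.0 (at least 95% identity over 500 bases). Promoter windows came from RefSeq.

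Alternatives covered the pseudocount, the filter, scaling, trends on GC content and transcript length, eBayes settings, weights per library, a block for the replicate number, and each library left out.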

Additional observations from a re-analysis of the deposited data

How the results depend on the processing

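The count of 0 genes past an adjusted p of 0.05 was also obtained with a pseudocount of 0.1 or 1, with no filter, with a mean of at least 2 RPKM, with median-ratio or quantile scaling, after removal of the GC content and length trends, and with robust or trend-free eBayes. Weights per library gave 420 genes, 306 higher and 114 lower, which were 3.55% of the genes tested. Asns, Chac1, Sesn2, Mthfd2 and Ppp1r15a were among the 114. Nothing is read from this, because the 10 genes and the lists were chosen with earlier results known. The weights were 7.28 for DMSO replicate 3 and 0.316 to 2.34 for the other libraries. Leaving out 1 library gave 0 to 19 genes, with 19 without DMSO replicate 1, and none of the 10 genes or of the pathway lists was among them. The replicate number as a block gave 1 gene, Fam25c, named after its value was seen, and 0 where the GC content and length trends were also removed. The sources used here do not say that the numbers pair the libraries. Deviations of same-numbered libraries correlated across genes at 0.003, 0.038 and -0.305, and only DMSO replicate 2 correlated best with its own number. These deviations sum to 0 within each group of 3, so that the correlations cannot decide whether the libraries were paired. The median difference of the 10 genes was -0.48 with median-ratio and -0.45 with quantile scaling, and ran from -0.77 to -0.06 with 1 library left out. It was -0.40 with the replicate block, which cannot change a difference where each number occurs once in each group.

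Signs of the 10 genes were kept in all 14 alternatives for Atf4, Asns, Chac1, Sesn2, Psat1 and Trib3. Alternatives with a replicate block, counted here and for the pathway medians, had to repeat the differences of the same fit without it. Each of Ddit3, Phgdh, Slc7a5 and Slc3a2 changed sign in 1 alternative, which left out a library. The pathway medians kept their sign in 16 alternatives for the Xbp1 and Atf6 arms, at 0.05 to 0.34, and for the transporters, at -0.34 to -0.00051. The enzymes of amino acid and folate metabolism turned to 0.06 without DMSO replicate 2, and the medians of the stress genes, the eIF2 list and the mTORC1 list changed sign in 2, 3 and 3 alternatives that left out a library. The cause was not tested. limma stopped the estimation of library weights before its tolerance was reached. With 3 libraries a group, 1 library can set a mean.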
